A study of Mus musculus with 8 samples.

Results

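The heat shock genes described here are 10 mouse genes, Hspa1a, Hspa1b, Hspa8, Dnajb1, Hsph1, Bag3, Hsp90aa1, Hspb1, Hspb8 and Hspd1, measured in primary hepatocytes. A probe set (the group of short DNA probes that reads one transcript on the array) belongs here if its platform symbol is exactly one of these names. That gave 24 probe sets out of 45101 on the array. Of the 24, 22 passed the filter on dim signal and were tested, among 19814 tested in all. Each gene is led by its brightest probe set, and all 10 leading probe sets were tested.

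Heat shock proteins are chaperones, proteins that hold, refold or hand on other proteins that have lost their shape. In unstressed cells the transcription factor HSF1 is held inactive. When misfolded proteins accumulate, HSF1 forms trimers, binds heat shock elements in promoters and raises transcription of the inducible chaperones. HSP70 proteins bind and release clients in a cycle in which J-domain proteins deliver the client and nucleotide exchange factors free it. HSP90 acts on partly folded signalling proteins, and small heat shock proteins bind unfolding clients without using ATP. Hspd1 encodes the chaperonin HSP60, which works in the mitochondrial matrix, so the set is not purely cytosolic, although Hspd1 is a known heat shock target too.

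Cells came from mice of the mixed C57BL6/129SVJ background, either Tgm2 knockouts (KO, lacking transglutaminase 2, an enzyme that crosslinks proteins) or wild type (WT). They were kept for 15 h with 100 mM or 0 mM ethanol. The 4 groups, KO with ethanol, untreated KO, WT with ethanol and untreated WT, had 2 Affymetrix arrays each, lettered A and B. No label or protocol gives the deleted part of Tgm2 or the age of the mice. Nor do the labels tie A and B to separate animals or cultures, so the p-values reflect the scatter of these arrays, part or all of which may be technical. One label field contradicts the others: the treatment entry of ethanol array B, in KO and in WT, describes a control incubation, whereas its title and source name say 100 mM ethanol. Groups follow the titles here. Calls on the leading probe sets that change when these arrays are dropped or treated as controls are given after the counts or with the gene. The related lists were not run under those readings.

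The targeted gene was checked first. The Tgm2 probe set 1417500_a_at had normalised intensities of 704 and 628 in KO with ethanol, 378 and 368 in untreated KO, 16800 and 16800 in WT with ethanol, and 16700 and 16800 in untreated WT. All KO arrays were lower than all WT arrays. The WT values lay near the top of the arrays' range, so no size is given for the difference. Trimmed mean intensities before normalisation ran between 113.3 and 341.5. Untreated KO A and B and ethanol KO A were the dim arrays, at 113.3 to 117.5. The ratio of 3′ to 5′ signal for the control transcript of pyruvate carboxylase, a measure of RNA or labelling quality, was 4.91 and 5.45 in KO with ethanol and 10.6 and 8.69 in untreated KO. It was 26.7 and 44.5 in WT with ethanol and 10 and 16.8 in untreated WT. The untreated genotypes overlapped, while with ethanol the ratio was lower in KO and higher in WT than on the untreated arrays. The same ratio ran from 0.771 to 0.977 for Gapdh and from 1.15 to 1.62 for beta-actin over all arrays. The part of these ratios in the results was not tested. The 9 measured hepatocyte markers summed to intensities between 64600 and 70400 on all arrays, with albumin (Alb) between 11800 and 16700. Single markers moved within that sum: 3 of the 9 were higher and 4 lower in untreated KO than in untreated WT, beside 15.2% and 21.1% of all genes. Among the lower ones was Hnf4a, a hepatocyte transcription factor, by -1.36 ± 0.098 (log2 ± SE, limma, adjusted p = 1.6e-05). With ethanol in KO Hnf4a rose by 0.74 ± 0.098 (adjusted p = 0.0013). The part of these markers in the heat shock values was not tested. The number of arrays limits the precision of every value below. In RNA from a whole culture, fewer cells of a type and less RNA per cell cannot be told apart.

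Promoters are shown because HSF1 acts through them, and because those of Hspa1a and Hspa1b are nearly alike. RefSeq windows (GRCm38.p6) of 250 bases before to 50 after a transcription start were at hand for 8 of the 10 genes, 11 windows in all. The letters searched were GAANNTTC or TTCNNGAA, which join 2 inverted units of a heat shock element, and the GC box GGGCGG or CCGCCC, to which Sp1 binds. A 3-unit form, which contains the 2-unit one and adds a further inverted unit at the same spacing, was counted too. Both strands were read. The bases before the start are printed 5′ to 3′ on the gene's own strand, with matches in capitals. Hspa1a (minus strand, chr17:34972157-34972406) and Hspa1b (minus strand, chr17:34959239-34959488) were printed for their likeness. Hspb1 (plus strand, chr5:135887669-135887918) and Hspd1 (minus strand, the second of its windows, chr1:55087933-55088182) show a gene that differed between genotypes and one that hardly moved.
Hspa1a: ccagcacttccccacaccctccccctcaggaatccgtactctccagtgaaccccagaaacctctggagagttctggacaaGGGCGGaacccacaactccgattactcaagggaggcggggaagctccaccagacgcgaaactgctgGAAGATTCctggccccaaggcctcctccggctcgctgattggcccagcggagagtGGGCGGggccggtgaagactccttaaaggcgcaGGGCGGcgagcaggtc
Hspa1b: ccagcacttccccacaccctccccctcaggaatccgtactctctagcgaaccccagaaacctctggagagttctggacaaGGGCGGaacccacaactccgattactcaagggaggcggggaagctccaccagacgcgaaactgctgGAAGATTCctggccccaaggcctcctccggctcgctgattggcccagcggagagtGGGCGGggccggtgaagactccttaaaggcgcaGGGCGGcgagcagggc
Hspb1: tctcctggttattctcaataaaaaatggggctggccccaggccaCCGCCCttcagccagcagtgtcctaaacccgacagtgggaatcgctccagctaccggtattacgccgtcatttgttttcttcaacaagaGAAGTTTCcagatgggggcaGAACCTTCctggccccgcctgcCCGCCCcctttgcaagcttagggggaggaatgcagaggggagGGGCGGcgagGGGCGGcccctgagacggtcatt
Hspd1: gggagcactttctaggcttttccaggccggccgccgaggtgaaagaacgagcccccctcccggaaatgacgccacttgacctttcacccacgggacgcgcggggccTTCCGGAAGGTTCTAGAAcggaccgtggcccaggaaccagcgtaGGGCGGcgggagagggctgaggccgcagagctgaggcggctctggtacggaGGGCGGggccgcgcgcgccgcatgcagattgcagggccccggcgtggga

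The Hspa1a and Hspa1b windows differed at 4 of 300 bases, and both carried GAAGATTC 104 bases before the start. The genes lie on chromosome 17 with 10120 bases between them. Hspb1 held the 2-unit form at 117 and 97 bases before its start. The 3-unit form was found in Hsph1 and in the second Hspd1 window, where 2 overlapping copies began 144 and 139 bases before the start. The first Hspd1 window held neither the 2-unit nor the 3-unit form. At least 1 window of 7 of the 8 genes held the 2-unit form, with Dnajb1 the exception, against 17% of all 27025 genes with windows. In Hspb8 and Bag3 the only match lay after the start, beginning at bases 3 and 43. The 3-unit form was in 2 of the 8 genes and in 0.662% of all genes. The GC box was in all 8 and in 38.2% of all genes. The genes were chosen as HSF1-driven chaperones, so a share of heat shock element letters above that of all genes came with the choice. A match describes letters in a window and is neither a binding site nor a cause.

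By their leading probe sets, the 10 genes split into a part that was higher in KO hepatocytes and a part that was not. The inducible HSP70 genes Hspa1a and Hspa1b and the J-domain partner Dnajb1 were higher in KO than in WT, with or without ethanol. For Dnajb1 without ethanol, 1 of its 2 probe sets was called. Hspb1 (HSP27, a small heat shock protein) was lower in untreated KO than in untreated WT. With ethanol most of the genes rose in KO hepatocytes. In WT hepatocytes Hsph1 alone passed the test among the leading probe sets, which is not a test that the genotypes differ.

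By the leading probe sets, with ethanol in KO 7 of 10 genes rose and none fell, where 14.1% of all 10741 genes with a tested leading probe set rose and 10.1% fell (24.2% in either direction). The median difference of the 10 was 0.48 (log2), beside 0.039 over those genes. The 7 include Hspa8, for which no direction is given below. A further probe set of Hsp90aa1, 1426645_at, was called lower (-0.42 ± 0.071). With ethanol in WT, 1 of 10 rose and none fell, beside 2.31% and 2.55% of all genes (4.86% in either direction), with medians of 0.1 and 0.048. Between untreated KO and untreated WT, 4 genes were higher (15.2% of all genes) and 4 lower (21.1%, and 36.2% in either direction), with medians of -0.03 and -0.089. Between KO and WT with ethanol, 3 were higher (12.4%) and none lower (17.6%, and 30% in either direction), with medians of 0.03 and -0.078. The difference between the ethanol effects, KO minus WT, passed for 2 genes, both higher (3.24%), and for none lower (1.82%, and 5.06% in either direction), with medians of 0.32 and -0.004. Of all 22 tested probe sets, 14 were called with ethanol in KO (22.2% of all tested probe sets), 3 with ethanol in WT (5.58%), 14 between untreated KO and untreated WT (32.3%), 10 between KO and WT with ethanol (29.1%) and 6 for the difference of the effects (5.35%). The untreated KO arrays enter both the ethanol comparison in KO and the untreated genotype comparison, so the 2 sets of values are not independent.

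These counts depended on the arrays and the scaling, and the calls over all tested probe sets moved too. With ethanol in KO there were 4394, beside 4695 under trimmed-mean scaling and 213 under median scaling. For the difference of the effects 1061 fell to 14 under median scaling. A changed count is therefore not by itself a result about the heat shock genes. Leaving out 1 array leaves 1 in its group, and the fit then takes that group's spread from the other groups. Without either untreated KO array, 2 genes rather than 7 were called with ethanol in KO, Hspb8 and Hspa8, and the untreated genotype comparison called 5 (without array A) or 4 (without array B) rather than 8. Without ethanol KO A, 6 genes rather than 3 were called between KO and WT with ethanol, and 5 rather than 2 for the difference of the ethanol effects. Scaling by the trimmed mean gave 5 higher and 2 lower with ethanol in KO, and 5 higher and 2 lower between untreated KO and untreated WT. Scaling by the median, which moved the median of all tested probe sets to -0.25 for ethanol in KO and to -0.38 between KO and WT with ethanol, left 1 call, Hspa1a, in each genotype comparison and none for ethanol in KO, ethanol in WT or their difference. With both B ethanol arrays counted as untreated, which leaves 1 ethanol array a genotype and takes it to vary like the other arrays, 1 gene, Hspb1, was called with ethanol in KO and none between KO and WT with ethanol. Under that reading the ethanol differences in KO were 0.24 for Dnajb1, 0.28 for Hspb8, 0.51 for Bag3, 0.21 for Hsph1 and 0.29 for Hspa8 (limma, adjusted p = 0.53, 0.59, 0.16, 0.54 and 0.23). Between KO and WT with ethanol, Hspa1a gave 1.5 (adjusted p = 0.093) and Dnajb1 1.07 (adjusted p = 0.053). Between untreated KO and untreated WT the calls of Hspb8 (-0.13, adjusted p = 0.69) and Bag3 (-0.32, adjusted p = 0.14) were lost, and the ethanol effects no longer differed past the threshold for Dnajb1 (0.41, adjusted p = 0.61) or Hspa8 (0.31, adjusted p = 0.54). The WT ethanol call of Hsph1 was lost too, at 0.16 with these arrays as controls and at 0.3 without them (adjusted p = 1 and 0.086). With the B ethanol arrays left out, 1 ethanol array a genotype is left as well. Calls were gained there for Hspa1b with ethanol in WT (0.64) and for Hsp90aa1 with ethanol in KO (-0.35). For the difference of the effects they were gained in Hsp90aa1 (-0.47), Hspb1 (0.85) and Bag3 (0.46).

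**Figure D1:**
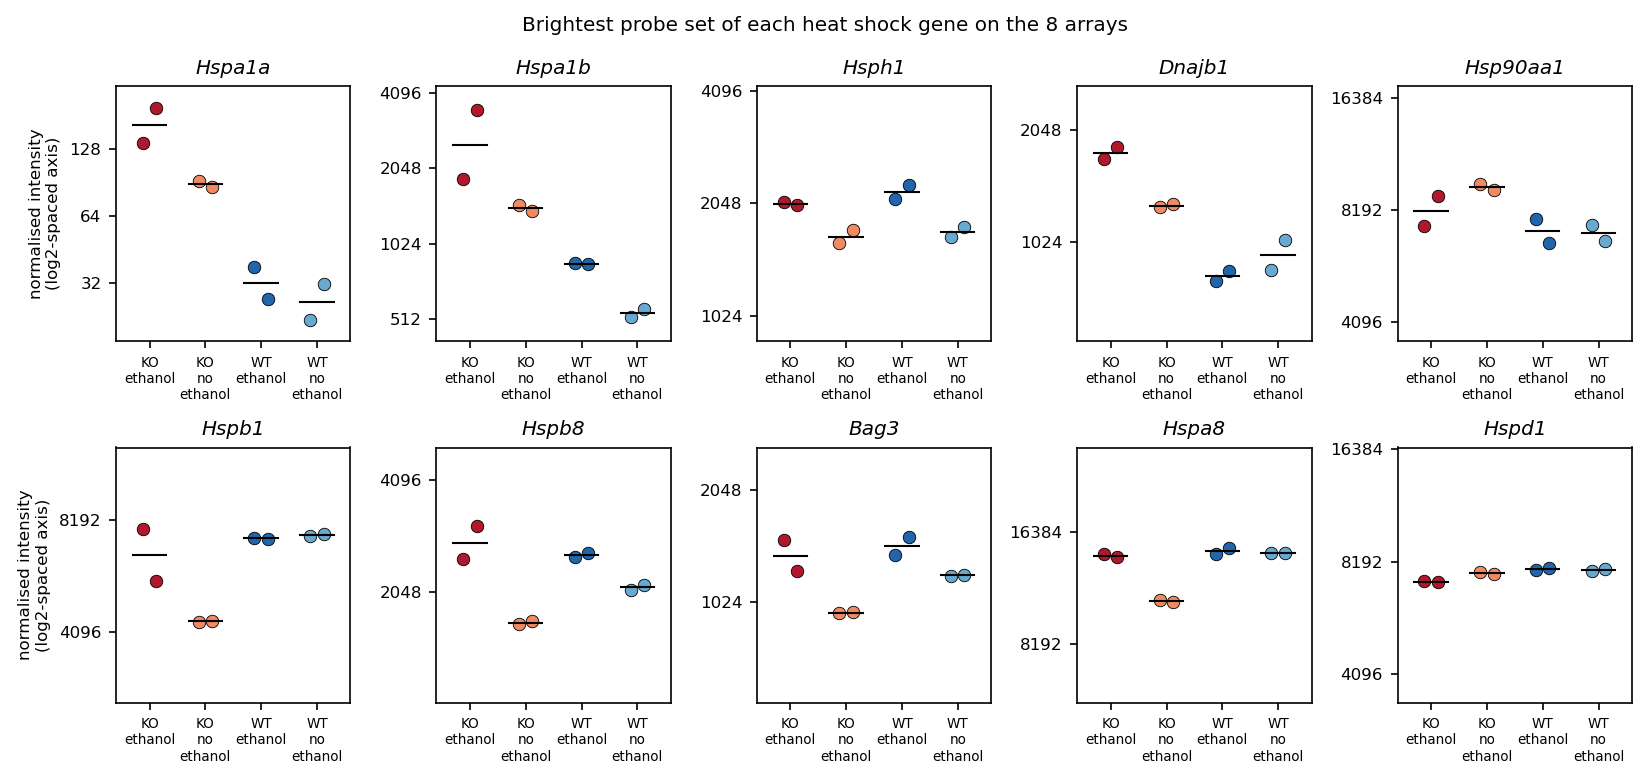
Normalised intensity (log2-spaced axis) of the leading probe set of each gene on the 8 arrays, in KO with ethanol, KO without ethanol, WT with ethanol and WT without ethanol; points are arrays and bars are geometric means of 2 arrays. Hspa1a, Hspa1b and Dnajb1 are highest in KO with ethanol and lower on every WT array than on any KO array, and Hspd1 lies between 7220 and 7870 throughout.

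Hspa1b encodes inducible HSP70, which in most unstressed cells is scarce and rises steeply on heat. Its leading probe set 1452318_a_at had intensities of 1850 and 3490 in KO with ethanol, 1460 and 1380 in untreated KO, 853 and 845 in WT with ethanol, and 521 and 561 in untreated WT. The 4 groups stood in that order with no overlap. KO exceeded WT by 1.56 ± 0.22 (log2 ± SE) with ethanol, a 2.96-fold difference (limma, adjusted p = 0.00085). Without ethanol the genotype difference was 1.37 ± 0.22, or 2.58-fold (adjusted p = 0.0015). Ethanol raised it in KO by 0.83 ± 0.22 (adjusted p = 0.027). In WT the ethanol difference was 0.64 ± 0.22, with both ethanol arrays above both untreated ones, and did not pass (adjusted p = 0.15). The ethanol effects of this probe set differed by 0.2 ± 0.32 between genotypes (adjusted p = 0.76).

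The other Hspa1b probe sets kept the order of the groups but not the sizes. Probe set 1427126_at read 1390 and 1510 in KO with ethanol, 558 and 554 in untreated KO, 346 and 369 in WT with ethanol, and 243 and 298 in untreated WT. Probe set 1427127_x_at read 2230 and 1910 in KO with ethanol, 899 and 852 in untreated KO, 407 and 418 in WT with ethanol, and 325 and 379 in untreated WT. Both gave a larger ethanol effect in KO, 1.35 ± 0.12 and 1.22 ± 0.11, than the leading one. For both the ethanol effect was larger in KO than in WT, by 0.97 ± 0.16 (limma, adjusted p = 0.013) and 1 ± 0.16 (adjusted p = 0.0091). With ethanol, KO exceeded WT by 1.97 ± 0.12 and 2.28 ± 0.11, or 3.92-fold and 4.85-fold. The 2 arrays of KO with ethanol lay closer together in both than in the leading probe set. If both B ethanol arrays are counted as untreated, the ethanol difference of the leading probe set in KO turns to -0.05 (adjusted p = 0.95), and its genotype difference with ethanol is 1.1 (adjusted p = 0.26). Without either untreated KO array the leading probe set's ethanol call in KO was lost (0.8 to 0.87, adjusted p = 0.11 to 0.14).

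Hspa1a, the neighbouring gene for the same protein, was read by 1 dim probe set, 1452388_at. It had intensities of 136 and 196 in KO with ethanol, 92.3 and 86.8 in untreated KO, 37.8 and 27.3 in WT with ethanol, and 22.1 and 31.9 in untreated WT. KO arrays lay above WT arrays throughout, while the ethanol and untreated arrays of WT overlapped. The genotype difference was 1.89 ± 0.26 with ethanol (3.71-fold, limma, adjusted p = 0.00071) and 1.31 ± 0.26 without (2.47-fold, adjusted p = 0.0044). The scale is log2(intensity + 16), which understates changes at such low signal. Ethanol moved it by 0.76 ± 0.26 in KO, with both arrays above, and did not pass (limma, adjusted p = 0.064). It did pass under trimmed-mean scaling (0.86, limma, adjusted p = 0.043). Without ethanol KO A, which leaves only B in that group, the difference was 1. Hspa1a and Hspa1b are close paralogs. No probe or transcript sequences were compared here, so whether their probe sets read 1 gene or both was not tested.

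Dnajb1, also called HSP40, delivers clients to HSP70 and starts its ATP cycle. Its leading probe set 1416756_at read 1710 and 1850 in KO with ethanol, 1270 and 1300 in untreated KO, 809 and 856 in WT with ethanol, and 865 and 1040 in untreated WT. All KO arrays were above all WT arrays, and in WT the ethanol arrays were the lower pair. KO exceeded WT by 1.08 ± 0.1 with ethanol (2.12-fold, limma, adjusted p = 6.6e-05) and by 0.43 ± 0.1 without (1.35-fold, adjusted p = 0.0088). The difference without ethanol missed the threshold on leaving out either untreated KO array or untreated WT A (0.31 to 0.45, adjusted p = 0.05 to 0.085). Ethanol gave a rise of 0.46 ± 0.1 in KO (adjusted p = 0.011) and a difference of -0.18 ± 0.1 in WT (adjusted p = 0.38). The effects differed by 0.65 ± 0.14 (adjusted p = 0.032), a call lost under trimmed-mean scaling (0.61, adjusted p = 0.064), without the filter on dim probe sets (adjusted p = 0.054) and on leaving out either untreated KO array, either ethanol WT array or untreated WT B (0.52 to 0.69, adjusted p = 0.086 to 0.13). The other probe set, 1416755_at, read 1150 and 1110 in KO with ethanol, 830 and 848 in untreated KO, 879 and 918 in WT with ethanol, and 718 and 787 in untreated WT. There the WT ethanol difference was 0.25 ± 0.086, of the other sign, and the effects differed by 0.17 ± 0.12 (adjusted p = 0.43). The greater ethanol effect in KO therefore rested on 1 of the 2 probe sets, while ethanol in KO and KO against WT with ethanol were called higher in both. In 1416755_at the genotype difference without ethanol was 0.16 ± 0.086 and was not called (limma, adjusted p = 0.2).

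Hsph1 (HSP110) and Bag3 are nucleotide exchange factors of HSP70. Bag3 also links HSP70 to small heat shock proteins and to autophagy. The leading Hsph1 probe set 1425993_a_at read 2060 and 2030 in KO with ethanol, 1610 and 1730 in untreated KO, 2110 and 2300 in WT with ethanol, and 1670 and 1770 in untreated WT. Ethanol arrays lay above untreated ones in both genotypes, by 0.29 ± 0.079 in KO (limma, adjusted p = 0.028) and by 0.36 ± 0.079 in WT (adjusted p = 0.032). The genotypes differed by -0.11 ± 0.079 with ethanol and -0.04 ± 0.079 without, neither past the test. The second probe set, 1423566_a_at, disagreed, with 1330 and 1270 in KO with ethanol, 1080 and 1130 in untreated KO, 812 and 838 in WT with ethanol, and 913 and 943 in untreated WT. It put KO above WT by 0.64 ± 0.08 with ethanol (adjusted p = 0.00038) and the ethanol difference in WT at -0.17 ± 0.08 (adjusted p = 0.3). The ethanol call of the leading probe set in WT was lost on leaving out any array other than those of KO with ethanol (0.3 to 0.42, adjusted p = 0.066 to 0.23). In KO it was lost without either untreated KO array or ethanol KO A (0.24 to 0.35, adjusted p = 0.06 to 0.18).

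Bag3 (1422452_at) read 1500 and 1240 in KO with ethanol, 956 and 963 in untreated KO, 1370 and 1530 in WT with ethanol, and 1200 and 1210 in untreated WT. Untreated KO arrays were the lowest, and the ethanol arrays of KO and WT overlapped. Ethanol raised Bag3 in KO by 0.5 ± 0.1 (limma, adjusted p = 0.0086), and without ethanol KO was lower than WT by -0.33 ± 0.1 (adjusted p = 0.035). The untreated difference missed the threshold without the filter (adjusted p = 0.061), and without any 1 of the 4 untreated arrays (-0.33 to -0.32, adjusted p = 0.13 to 0.14).

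**Figure D2:**
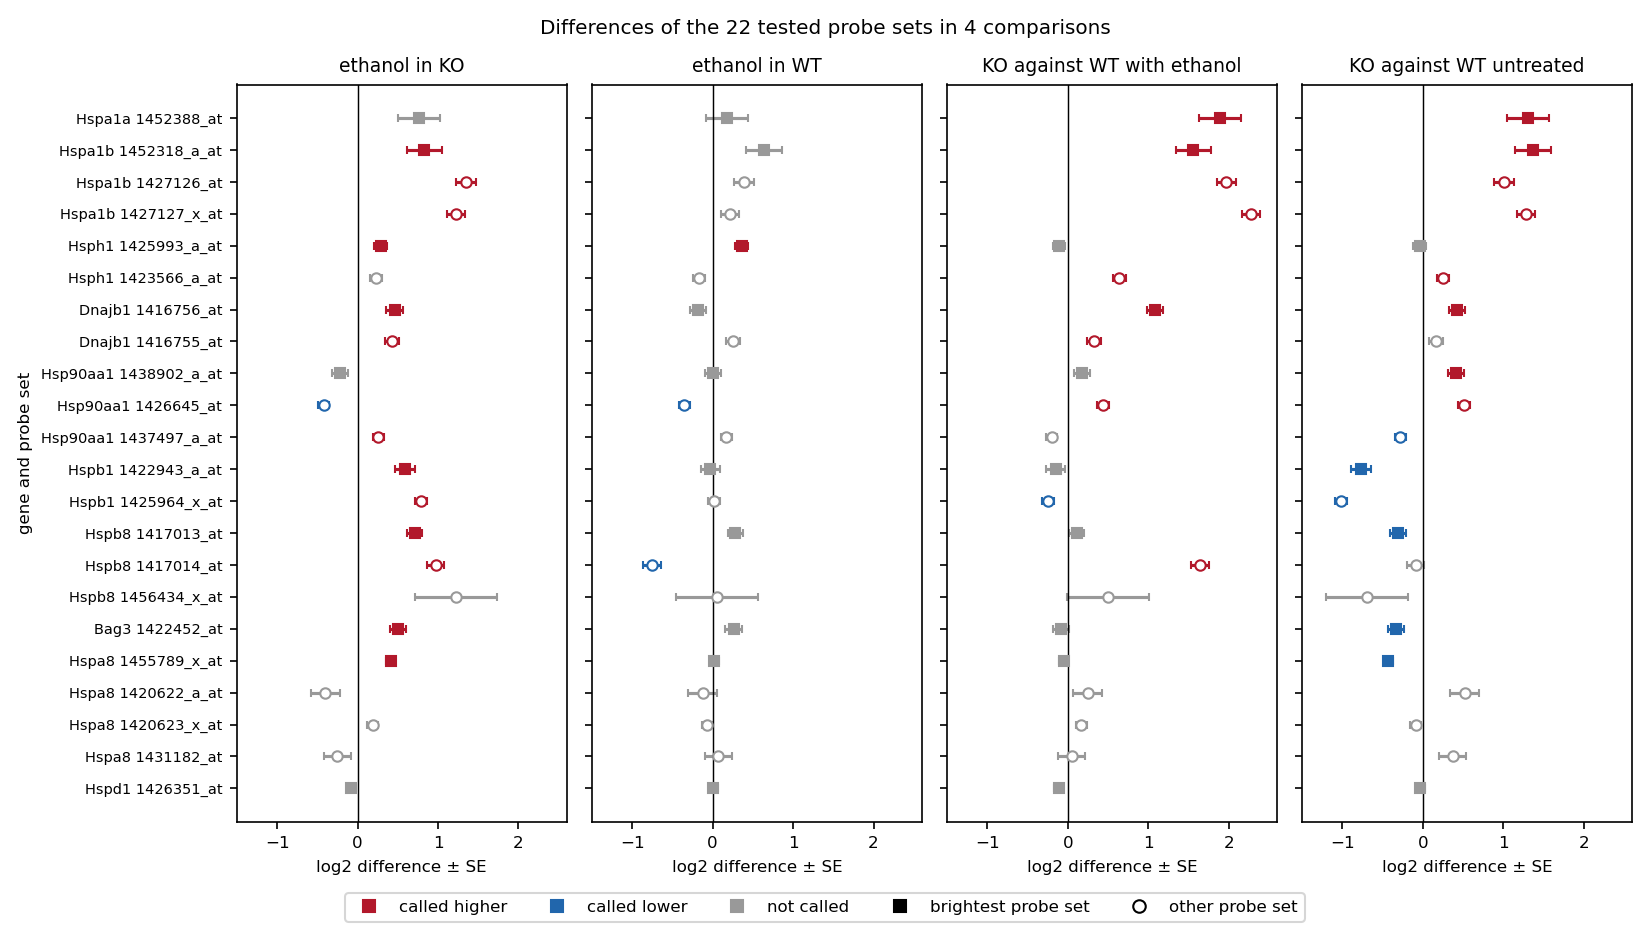
Log2 difference with its SE for the 22 tested probe sets of the heat shock genes, in 4 comparisons: ethanol in KO, ethanol in WT, KO against WT with ethanol and KO against WT untreated; squares are leading probe sets, circles the others, red called higher, blue called lower and grey not called. All 4 probe sets of Hspa1a and Hspa1b lie at 1.01 or above in both genotype comparisons, while Hspb1 is below 0 there.

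Hspb1, a small heat shock protein that holds unfolding clients and binds actin, went the other way between genotypes. Its leading probe set 1422943_a_at read 7780 and 5620 in KO with ethanol, 4380 and 4390 in untreated KO, 7330 and 7310 in WT with ethanol, and 7420 and 7500 in untreated WT. Only the untreated KO pair stood clearly apart from the rest. Untreated KO was lower than untreated WT by -0.77 ± 0.12 (0.588-fold, limma, adjusted p = 0.0013), and 1425964_x_at gave -1.02 ± 0.075 (0.494-fold, adjusted p = 1.7e-05). Ethanol raised Hspb1 in KO by 0.59 ± 0.12 (adjusted p = 0.0088) and 0.79 ± 0.075 (adjusted p = 0.00038) in the 2 probe sets. In WT the ethanol differences were -0.03 ± 0.12 and 0.02 ± 0.075. The effects differed between genotypes by 0.78 ± 0.11 in 1425964_x_at (adjusted p = 0.0053), while the leading probe set, at 0.62 ± 0.17, missed the threshold (adjusted p = 0.071). With ethanol KO and WT arrays of the leading probe set overlapped. Without ethanol KO A, which leaves only B, an array with the conflicting treatment entry, the difference was -0.38. Hspb1 was also lower in untreated KO under trimmed-mean scaling, at -0.56 (adjusted p = 0.029), whereas its ethanol call in KO was lost there (0.45, adjusted p = 0.082) and without either untreated KO array (0.59, adjusted p = 0.064 to 0.066).

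Hspb8, the partner of Bag3 in a complex that sends aggregated clients to autophagy, had 3 tested probe sets that differed. The leading one, 1417013_at, read 2510 and 3090 in KO with ethanol, 1680 and 1710 in untreated KO, 2540 and 2610 in WT with ethanol, and 2080 and 2140 in untreated WT. Ethanol raised it in KO by 0.71 ± 0.095 (1.64-fold, limma, adjusted p = 0.0014), and the WT difference was 0.28 ± 0.095 (adjusted p = 0.13). Untreated KO was lower than untreated WT by -0.31 ± 0.095 (adjusted p = 0.031), a call that 13 of 23 alternatives lost. Probe set 1417014_at read 1720 and 1470 in KO with ethanol, 793 and 811 in untreated KO, 547 and 460 in WT with ethanol, and 841 and 870 in untreated WT. By that probe set ethanol raised Hspb8 in KO by 0.97 ± 0.11 and lowered it in WT by -0.75 ± 0.11 (adjusted p = 0.0048). The effects differed by 1.73 ± 0.16 (adjusted p = 0.0014), beside 0.43 ± 0.13 in the leading probe set (adjusted p = 0.1). With ethanol, KO exceeded WT by 1.64 ± 0.11 in 1417014_at (3.11-fold, limma, adjusted p = 9.8e-06). The leading probe set gave 0.11 ± 0.095 there (adjusted p = 0.42), so whether Hspb8 was higher in KO with ethanol depended on the probe set. The third, 1456434_x_at, read 551 and 207 in KO with ethanol and 383 and 143 in WT with ethanol, a wide spread within each group, and passed no test.

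**Figure D3:**
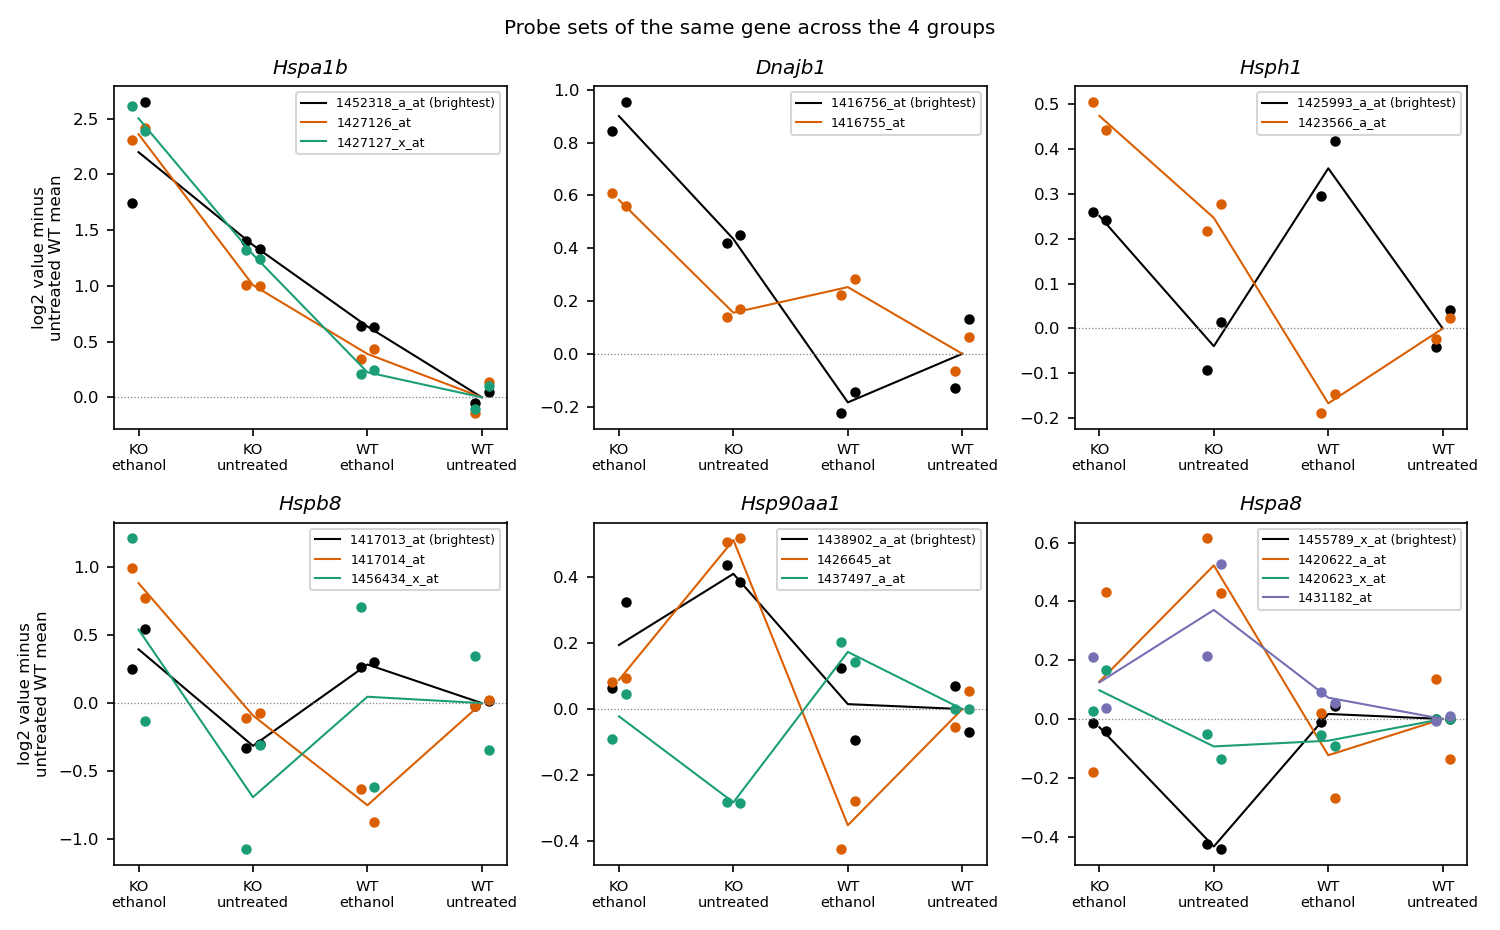
Log2 value minus the untreated WT mean for each tested probe set of 6 genes, across KO with ethanol, untreated KO, WT with ethanol and untreated WT; points are arrays and lines join group means. The 3 Hspa1b probe sets keep 1 order of the groups with different sizes, while the probe sets of Dnajb1, Hsph1, Hspb8, Hsp90aa1 and Hspa8 do not all share 1 order within a gene.

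Hsp90aa1 encodes the inducible cytosolic HSP90. Its leading probe set 1438902_a_at read 7420 and 8900 in KO with ethanol, 9610 and 9280 in untreated KO, 7740 and 6650 in WT with ethanol, and 7460 and 6760 in untreated WT. Untreated KO was the highest group, above untreated WT by 0.41 ± 0.1 (1.33-fold, limma, adjusted p = 0.013), a call lost without either untreated KO array or untreated WT B (0.34 to 0.44, adjusted p = 0.061 to 0.096). In the leading probe set ethanol gave -0.22 ± 0.1 in KO and 0.01 ± 0.1 in WT (adjusted p = 0.16 and 0.97). Under trimmed-mean scaling the ethanol difference in KO was -0.68 (adjusted p = 0.002). Probe set 1426645_at moved with the leading one between untreated KO and untreated WT, at 0.51 ± 0.071. It gave falls with ethanol of -0.42 ± 0.071 in KO and -0.35 ± 0.071 in WT (limma, adjusted p = 0.0037 and 0.023). The leading probe set did not share the fall in WT. Probe set 1437497_a_at was called the opposite way, -0.28 ± 0.067 for untreated KO against untreated WT (adjusted p = 0.01) and 0.26 ± 0.067 for ethanol in KO (adjusted p = 0.023). In these 2 comparisons Hsp90aa1 was called both higher and lower by its own probe sets, which no other gene of the 10 was in any of the 5 comparisons. Its remaining 2 probe sets, 1433251_at and 1441827_x_at, averaged 19.4 and 6.44 and were too dim to test.

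Hspa8 (HSC70) is the HSP70 that cells make without stress, and its signal was near the top of the arrays' range. The leading probe set 1455789_x_at read 14200 and 14000 in KO with ethanol, 10700 and 10600 in untreated KO, 14300 and 14800 in WT with ethanol, and 14400 and 14400 in untreated WT. After quantile normalisation untreated KO was lower than untreated WT by -0.43 ± 0.054 (limma, adjusted p = 0.00035). Ethanol in KO gave 0.41 ± 0.054 (adjusted p = 0.0014), and the effects differed by 0.39 ± 0.077 (adjusted p = 0.022). These 3 calls depended on the normalisation. Scaling each array by its trimmed mean turned them to 0.24, -0.04 and -0.05, none past the test, and untreated KO held 2 of the 3 dim arrays. The other probe sets gave no called difference between untreated KO and untreated WT, from -0.09 to 0.52, so no direction is given for Hspa8.

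Hspd1 (HSP60, 1426351_at) stayed level, with 7260 and 7220 in KO with ethanol, 7670 and 7600 in untreated KO, 7760 and 7870 in WT with ethanol, and 7750 and 7820 in untreated WT. Its group means spanned 0.11 on the log2 scale, the narrowest span of the 10, while Hspa1b spanned 2.2. No comparison of Hspd1 passed the test. Under trimmed-mean scaling untreated KO was higher than untreated WT by 0.39 (limma, adjusted p = 0.0088) and ethanol in KO gave -0.46 (adjusted p = 0.0064), so its steadiness held for quantile normalisation.

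**Figure D4:**
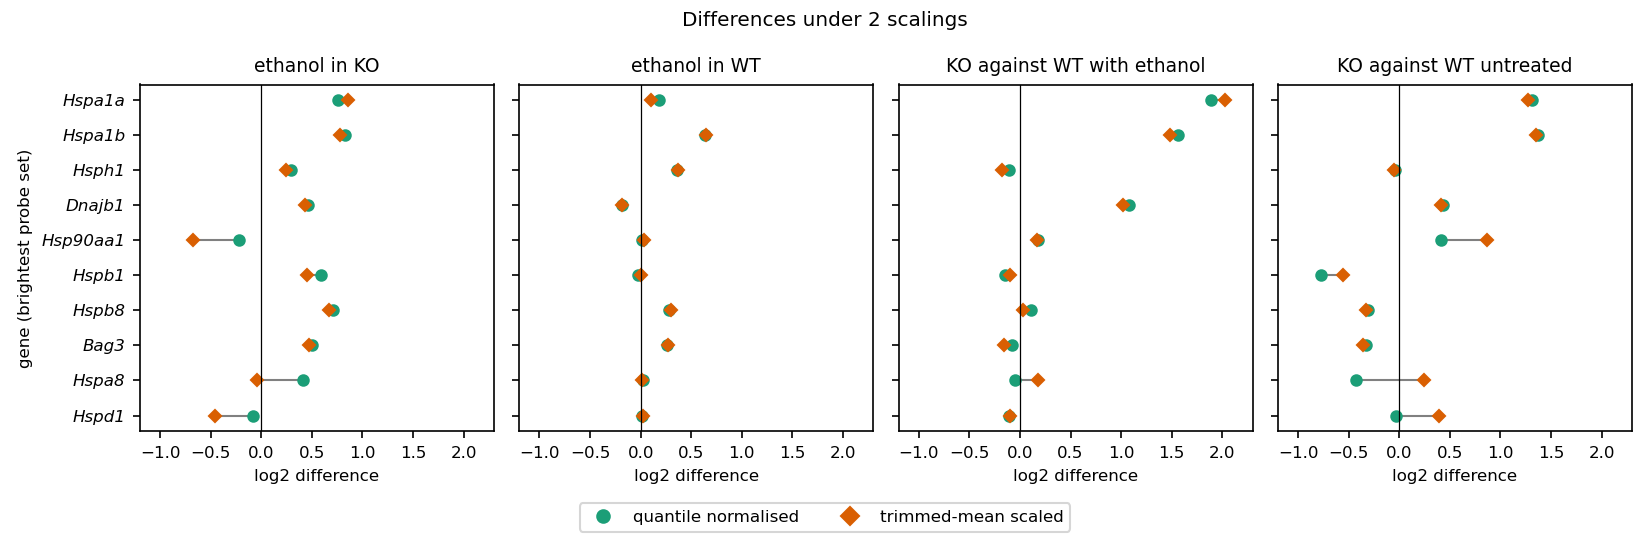
Log2 difference of the leading probe set of each gene after quantile normalisation (circles) and after trimmed-mean scaling (diamonds), for ethanol in KO, ethanol in WT, KO against WT with ethanol and KO against WT untreated. The 2 agree closely for Hspa1b and Dnajb1 and part for Hspa8, Hspd1 and Hsp90aa1 where untreated KO is compared.

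Averaged over ethanol and no ethanol, 4 of the 10 genes were higher in KO (17.9% of all genes) and 3 lower (26.9%): Hspa1a by 1.6 ± 0.19, Hspa1b by 1.47 ± 0.16, Dnajb1 by 0.76 ± 0.071 and Hsp90aa1 by 0.3 ± 0.072 (limma, adjusted p = 0.00012, 7.9e-05, 3.2e-05 and 0.0088). The lower ones were Hspb1, Bag3 and Hspa8. Other probe sets were called the opposite way, 1437497_a_at of Hsp90aa1 at -0.24 ± 0.048 (adjusted p = 0.0029) and 1420622_a_at of Hspa8 at 0.39 ± 0.13 (adjusted p = 0.037). For Hspb8 and Hsph1 the leading probe sets were not called, but 1417014_at and 1423566_a_at were higher in KO. They gave 0.77 ± 0.078 and 0.44 ± 0.056 (limma, adjusted p = 5.3e-05 and 0.00021). The averaged ethanol effect was called higher for 6 genes (13.2%), Hspa1b, Hsph1, Hspb1, Hspb8, Bag3 and Hspa8, and lower for none (8.82%). The averages were not run under other scalings, and for Hspa8 no direction is given, as above. Spike-in controls split the arrays: a low bioC to bioB ratio on the A arrays of KO with ethanol, WT with ethanol and untreated WT, and a high one on the other 5. Within the low arrays KO exceeded WT with ethanol by 1.1 for Hspa1b and by 1.07 for Dnajb1. Within the high arrays the same differences were 2.02 and 1.1. For ethanol in KO the high arrays alone gave a value, 1.29 for Hspa1b, 0.52 for Dnajb1 and 0.86 for Hspb8. They gave 1.32 for Hspa1b, 0.31 for Dnajb1 and -0.77 for Hspb1 between untreated KO and untreated WT.

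The root mean square difference between centred log2 profiles over the 8 arrays was 0.227 for Hspa1a and Hspa1b, and 0.115 for Bag3 and Hspa8, the closest pair. Hspa1a and Hspb1 were the farthest apart, at 1.06. Dnajb1 lay between, at 0.472 from Hspa1a and 0.467 from Hspd1. This likeness shares the arrays and their normalisation. Outside the set, the 5 genes closest to Hspa1b, the member with the widest range, were Txnip (0.207), Slc30a10 (0.235), Ppp1r15a (0.294), Galt (0.297) and Sdc4 (0.298). Txnip, an inhibitor of thioredoxin, read 1890 and 2350 in KO with ethanol, 1180 and 1240 in untreated KO, 568 and 656 in WT with ethanol, and 476 and 525 in untreated WT. These 5 were selected for this likeness, so their levels are a description.

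Other chaperone genes were taken from 7 lists of 67 genes, of which 55 were tested. With ethanol in KO, 12 were higher and 7 lower, beside 14.1% and 10.1% of all genes. With ethanol in WT, 2 were higher and 3 lower, beside 2.31% and 2.55%. Between KO and WT with ethanol, 11 were higher and 14 lower, beside 12.4% and 17.6%. Between untreated KO and untreated WT, 7 were higher and 13 lower, beside 15.2% and 21.1%. The counts of the single lists below are to be read against these shares, and several are near them. All list values come from the quantile-normalised fit to all arrays. The lists were not run under other scalings or with arrays left out.

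Among 18 partners of the HSP70 cycle, 4 were higher and 4 lower in KO than in WT with ethanol (median -0.06), beside 12.4% and 17.6% of all genes. Bag2, an exchange factor that inhibits the ubiquitin ligase Stub1, was higher by 0.81 ± 0.087 (limma, adjusted p = 0.00015), and Bag1 was lower by -0.66 ± 0.082 (adjusted p = 0.00038). Dnajb2, a J-domain protein, rose with ethanol by 0.79 ± 0.11 in KO and by 0.64 ± 0.11 in WT (adjusted p = 0.0016 and 0.01). Of 8 tested HSP90 partners, 4 were lower and 1 higher in untreated KO than in untreated WT (median -0.38), beside 21.1% and 15.2% of all genes. Fkbp4, an immunophilin of steroid receptor complexes, was lower by -1.12 ± 0.12 (adjusted p = 0.00016), and Ahsa1, which stimulates the HSP90 ATPase, by -0.55 ± 0.072 (adjusted p = 0.00046). Hsp90ab1, Ptges3 and Ppid were not analysed here.

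Of the 8 cytosolic chaperonin subunits, 4 were lower and none higher in KO than in WT with ethanol (median -0.24), beside 17.6% and 12.4% of all genes, Cct4 by -0.39 ± 0.072 (limma, adjusted p = 0.0035). Of 9 mitochondrial chaperones and proteases, 2 were lower and none higher there (median 0.06), near the shares of all genes, Hspe1, the partner of Hspd1, by -0.24 ± 0.058 (adjusted p = 0.013). Cryab, a small heat shock protein, was higher in KO by 0.82 ± 0.19 with ethanol and 0.84 ± 0.19 without (adjusted p = 0.011 and 0.0086). The other member of that list that was tested, Hspb6, fell with ethanol in WT by -0.67 ± 0.14 (adjusted p = 0.028).

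Of 8 tested genes known to be induced by heat outside the chaperone families, 4 were higher and 1 lower in KO than in WT with ethanol (median 0.28), beside 12.4% and 17.6% of all genes. Zfand2a (AIRAP, a regulator of the proteasome) read 3910 and 3740 in KO with ethanol, 2560 and 2730 in untreated KO, 1730 and 1720 in WT with ethanol, and 2070 and 1990 in untreated WT. KO exceeded WT by 1.14 ± 0.07 with ethanol (limma, adjusted p = 5.4e-06), and the ethanol effects differed by 0.76 ± 0.099 (adjusted p = 0.0045). Hmox1, heme oxygenase 1, was higher in KO by 1.37 ± 0.077 with ethanol, and Atf3, a stress-induced transcription factor, by 1.63 ± 0.14 (adjusted p = 3.5e-06 and 4.8e-05). Both are also raised by stress pathways other than heat shock. Of the HSF family, Hsbp1, a binding partner of HSF1, was higher by 0.44 ± 0.079 (adjusted p = 0.0028), Hsf4 was tested and did not pass there, and Hsf1 was not analysed here.

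**Figure D5:**
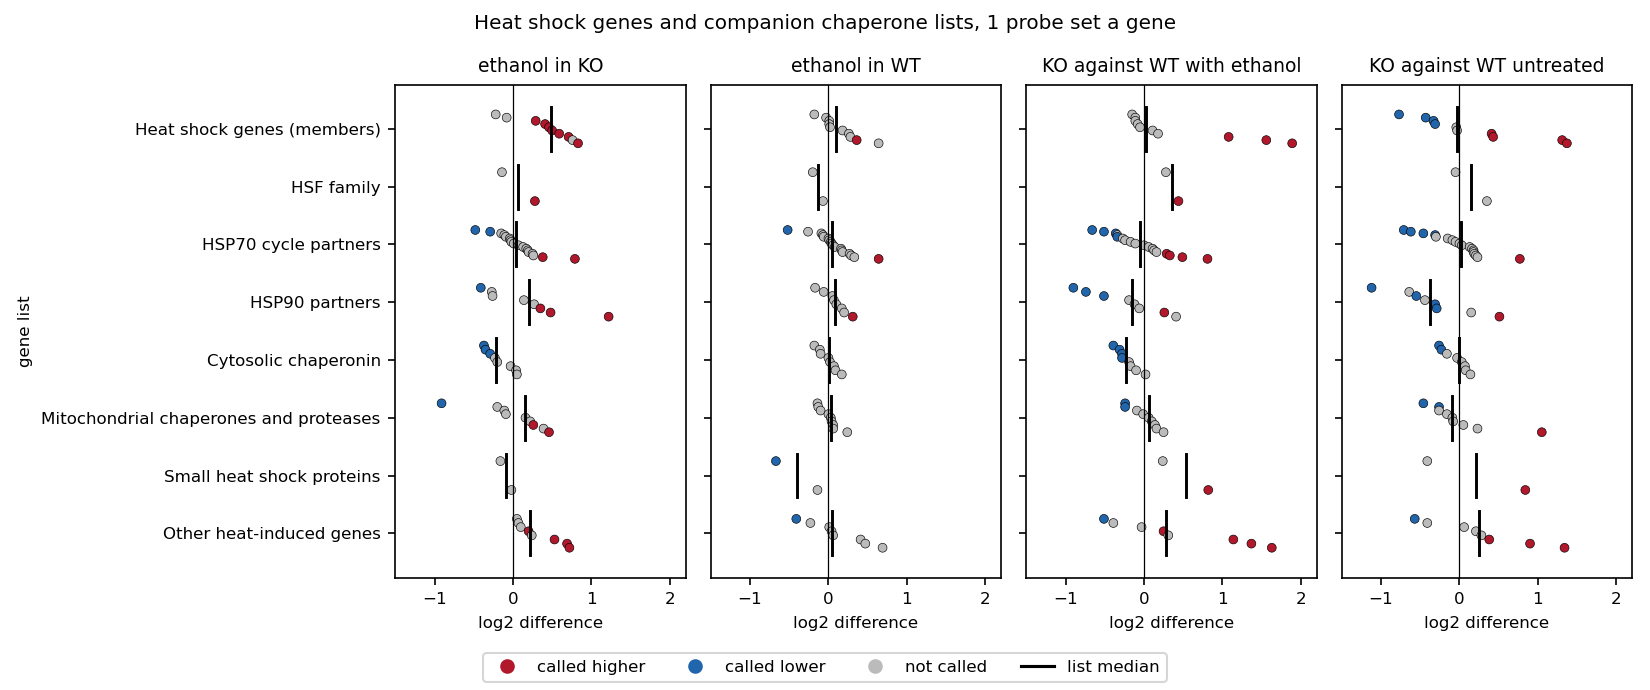
Log2 difference of each tested gene of the heat shock set and of 7 lists of related genes, for ethanol in KO, ethanol in WT, KO against WT with ethanol and KO against WT untreated; 1 point a gene, bars are list medians, red called higher, blue called lower and grey not called. In KO with ethanol against untreated KO the heat shock genes have a median of 0.48, and the cytosolic chaperonin list has -0.21.

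Markers of other liver cells were read beside these groups. The 10 Kupffer cell or macrophage markers summed to 8200 to 8820 in KO with ethanol, 6060 to 6140 in untreated KO, 6900 to 7120 in WT with ethanol and 5020 to 5360 in untreated WT. The sum was highest where Hspa1b was highest and lowest where it was lowest. Between these, the sum was higher in WT with ethanol than in untreated KO, the reverse of Hspa1b. Cd14, at 3830 to 6100, and Cd68, at 411 to 1860, made up most of the sum. Other markers of the list did not follow it. Between untreated KO and untreated WT 1 of the 10 was called higher, Cd68 (1.5 ± 0.097), and 3 lower, beside 15.2% and 21.1% of all genes. The lower ones were Csf1r (-0.65 ± 0.21), Lyz2 (-0.55 ± 0.18) and Marco (-0.98 ± 0.29). The defining markers Adgre1, Clec4f and Ptprc reached 134, 91.1 and 59.2 at most. The 4 cholangiocyte markers summed to 768 to 900 in KO with ethanol, 1020 to 1120 in untreated KO, 312 to 355 in WT with ethanol and 433 to 460 in untreated WT, most of it Sox9 (232 to 1050), while Krt19 and Krt7 reached 49.6 and 25.5 at most. The 8 stellate cell markers summed to 194 to 508 and the 7 endothelial ones to 382 to 627 over all arrays. Their part in the heat shock values was not tested.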

How the data were processed

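Total RNA of 8 hepatocyte samples was labelled by one-cycle in vitro transcription and read on 1-colour arrays, per the labels' protocols. The authors deposited 1 intensity a probe set and array. The software, scaling and genome build behind these intensities were not given in the sources used here. One array, WT with ethanol B, held 5410 unusable values, and the 39627 probe sets complete on all arrays, controls aside, were kept. Here the intensities were quantile normalised and taken as log2(intensity + 16). The brighter 50% by mean, 19814, were fitted with limma 3.58.1 in R 4.3.3, with 1 mean a group, a variance trend, 4 residual and 5.43 prior degrees of freedom. Calls are at a Benjamini-Hochberg adjusted p of 0.05 over all tested probe sets. The fit was tested on simulated data. By the platform annotation 34958 probe sets carry 1 gene symbol, of which 34754 matched RefSeq GRCm38.p6. Another 932 carry several symbols and 9211 have none, and these were not named.

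The members, the related lists and the markers were chosen with earlier results of these data known. All members are named, up to 4 genes with the smallest adjusted p in each related list and comparison described, the 5 genes nearest the member with the widest range, and Tgm2. Other offsets, filters, scalings, leading probe sets, left-out arrays, a replicate block and a spike-in term were tried as alternatives.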

Additional observations from a re-analysis of the deposited data

Results flagged for a closer look

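For 6 probe sets of the heat shock genes the test of the difference between the ethanol effects, KO minus WT, passed (limma, log2). Hspa1b differed by 0.97 in 1427126_at and by 1 in 1427127_x_at, while its brightest probe set gave 0.2. Dnajb1 differed by 0.65 in 1416756_at, against 0.17 in its other probe set. Hspb1 differed by 0.78 in 1425964_x_at, with 0.62 in the brighter one. Hspb8 differed by 1.73 in 1417014_at, the widest gap of the 6, with opposite calls for ethanol in KO and in WT. Hspa8 differed by 0.39 in 1455789_x_at, and its other probe sets gave -0.32 to 0.26.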

How the results depend on the processing

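Over 50 single-gene results with up to 24 alternatives each, 990 of 1150 values kept their side of the threshold without a called value turning sign. These 990 hold 41 uncalled values that changed sign. Another 105 lost the call, 40 gained one and 15 reversed. The 990 include results that were not called in the main fit and stayed so, which says little about the called ones. The Dnajb1 difference of effects lost its call in 10 of 22 alternatives, and that of Hspa8 in 9, with 3 more reversed. Hspa1a kept its untreated genotype call in all 22. The leading probe sets of Hspa1a, Hspa1b and Dnajb1 kept a higher level in KO, with and without ethanol, under each alternative that tested them. Calls were lost as given below and in the results above. The other Dnajb1 probe set, 1416755_at, gave -0.24 for KO against WT with ethanol under median scaling (limma, adjusted p = 0.78). The cause of the changes was not tested.

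Called genes of 10 were 1 for ethanol in WT, 7 for ethanol in KO, 8 between untreated KO and untreated WT, 3 between KO and WT with ethanol, and 2 for the difference of the ethanol effects. Leaving out 1 array gave 0 to 3, 2 to 8, 4 to 8, 3 to 6 and 0 to 5 for these 5 counts. The arrays that moved a count past 1.5 times were untreated KO A and B in all comparisons but KO against WT with ethanol, untreated WT A and B in ethanol in WT, the untreated genotype comparison and the difference of effects, ethanol WT A and B in ethanol in WT and the difference of effects, and ethanol KO A and B in those same 2, with A also in KO against WT with ethanol. With no filter, ethanol in WT and the difference of effects had 0, where more probe sets were tested. Trimmed-mean scaling gave 0 for ethanol in WT and 1 for the difference, a lower one. Median scaling, which left 58, 213, 1024, 1281 and 14 calls over all tested probe sets, gave 0, 0, 1, 1 and 0 for the 5 counts. Without the variance trend they were 0 for ethanol in WT, 2 for ethanol in KO, 5 untreated and 0 for the difference. Fitting only the 2 groups compared gave 3 for ethanol in WT. With the B ethanol arrays left out, the difference had 5. With them counted as untreated, ethanol in WT had 0, ethanol in KO 1, KO against WT with ethanol 0 and the difference 0. Keeping probe sets with an unusable value gave 0 for ethanol in WT. Leading each gene by its most variable probe set gave 0 for ethanol in WT, 4 for ethanol in KO and 5 with ethanol, of 9 genes. Chosen after seeing the data, the high spike-in arrays alone gave 5 between KO and WT with ethanol and 5 for the difference, and leaving out the 3 dim arrays gave 3 for ethanol in WT and 5 between KO and WT with ethanol. Counting all 22 probe sets gave 3, 14, 14, 10 and 6.

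Reversed values under trimmed-mean scaling were Hspa8 at -0.04 for ethanol in KO, 0.24 between untreated KO and untreated WT and -0.05 for the difference of effects, and Hspd1 at 0.39 untreated. Under median scaling Hsph1 gave -0.13 and Hspa8 -0.41 for ethanol in KO, and Hspa8 gave 0.21 untreated and -0.53 for the difference. Treating both B ethanol arrays as controls, Hspa1b gave -0.05 for ethanol in KO. With the most variable probe set leading, Hsph1 gave -0.17 for ethanol in WT, 0.25 untreated and 0.64 with ethanol, and Hspa8 gave -0.4 for ethanol in KO, 0.52 untreated and -0.27 for the difference.

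The array letters as a replicate block left the counts at 1, 7, 8, 3 and 2. Arrays of the same letter correlated at 0.0218 to 0.302 in their deviations from the group means, not all over 0.1, so the letters were not taken as pairs. Dim signal limits Hspa1a most among the leading probe sets.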
